A study of Mus musculus with 15 samples.

Results

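The BCL2 family decides whether a T cell keeps its mitochondria intact or commits to apoptosis, and 10 of its genes were followed here in antigen-primed CD8+ T cells. The members were taken by symbol from the GENCODE M21 annotation: the survival genes Bcl2, Bcl2l1 and Mcl1, the pore-forming effectors Bax and Bak1, and the BH3-only genes Bcl2l11, Bid, Bbc3, Pmaip1 and Bad. They are 10 of 55536 annotated genes in the count table, with 52 of 141862 transcripts and 54 of 138940 splicing events. The cells came from OT-I mice, whose CD8+ T cells carry a transgenic receptor for an ovalbumin peptide, and were transferred into C57BL/6J mice. In 5 libraries the recipients had been given the peptide with a control antibody (Ag). In the other 5 they had been given the peptide with agonist antibodies against the costimulatory receptors OX40 (CD134) and 4-1BB (CD137) (Ag+Costim). Transferred cells were sorted from spleen and lymph nodes at day 4 by the labels, a time that the study's methods give as somewhat shorter. Cells of both groups therefore share the same receptor, the same antigen and the passage through a host. Naive libraries, the third group of the series, were not analysed here. The comparison asked how costimulation during priming changes the survival and death genes of the responding cells.

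As background, Bcl2, Bcl2l1 (encoding Bcl-xL) and Mcl1 hold the effectors Bax and Bak1 in check on the outer mitochondrial membrane. BH3-only proteins such as Bim (Bcl2l11), Bid, Puma (Bbc3), Noxa (Pmaip1) and Bad carry a short helix, the BH3 domain, that fits a groove of the survival proteins, and several of them can also engage the effectors directly. In T cells, Bim is the main death signal of contracting clones, Bcl-xL is induced by activation and costimulation, and Mcl1 and Bcl2 support survival from the naive stage on.

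The helix that joins the family can be read in the coding sequence. Each line below is the stretch of 27 bases (9 codons) that encodes the core of the BH3 domain, read from GENCODE M21 transcripts (mm10). It was found as a leucine codon, any 3 codons, a glycine, alanine or serine codon and then an aspartate codon, and this pattern occurred once in the coding sequence of each gene shown. Capitals mark the leucine codon and the pair of codons that ends the pattern.
Bcl2: CTCcgccgggctGGGGATgacttctct
Bcl2l1: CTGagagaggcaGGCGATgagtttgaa
Mcl1: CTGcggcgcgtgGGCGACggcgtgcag
Bcl2l11: CTGcggcggatcGGAGACgagttcaac
Bid: CTCgcccaaataGGCGATgagatggac
Bbc3: CTGcggcggatgGCGGACgacctcaac
Bad: CTCcgaaggatgAGCGATgagtttgag
Bax: CTCcggcgaattGGAGATgaactggac
Bak1: CTTgctctcatcGGAGATgatattaac
In 7 of these genes the first codon of the capital pair is a glycine codon. It is a serine codon in Bad and an alanine codon in Bbc3. The Bcl2 stretch lies at chr1:106712575-106712601 and that of Bcl2l1 at chr2:152829697-152829723, both on the minus strand. The Mcl1 stretch lies at chr3:95659436-95659462 and that of Bcl2l11 at chr2:128147150-128147176, both on the plus strand. In Bcl2l11 it falls in an exon whose inclusion was near complete in both groups, as described with the isoforms.

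The libraries set how firmly the genes can be compared. Ag libraries held between 59.6 and 449 M (mega) estimated counts and Ag+Costim libraries between 332 and 639 M, so that Bak1, the member with the fewest counts in the shallowest library, still had 201 there. Replicates of Ag+Costim were alike, with a median coefficient of variation of 8.54% over the 8626 genes of at least 10 CPM (counts scaled to a common library total, with TMM factors), whereas that of Ag was 32.2%. Genes with a count numbered 48058, 51778 and 40441 in Ag replicates 1, 3 and 4, 21779 and 20714 in Ag replicates 2 and 5, and from 28727 to 30340 in Ag+Costim. Ag replicates 1 and 4 also stood apart by cell cycle genes. The summed level of 15 such genes was 1032 and 1098 CPM there, 5236 CPM in Ag replicate 3, 8444 and 9383 CPM in Ag replicates 2 and 5, and between 8407 and 10727 CPM in Ag+Costim. Markers of CD8 T cells were high in every library, at a summed 3833 to 7241 CPM in Ag and 5394 to 6266 CPM in Ag+Costim for 6 genes. The 6 B cell markers summed to 116, 305 and 146 CPM in Ag replicates 1, 3 and 4 and to between 14.6 and 32.6 CPM in the other 7 libraries. The 6 erythroid markers summed to 1103 CPM in Ag replicate 3, to between 14.7 and 126 CPM in the other Ag libraries and to between 3.80 and 39.8 CPM in Ag+Costim. CD4 T cell markers (4 genes) reached 26.4 CPM at most, myeloid markers (6 genes) lay between 36.9 and 114 CPM in Ag and between 66.2 and 149 CPM in Ag+Costim, and no marker was at 0 in every library. The part of these cells, or of the number of genes detected, in the differences given below was not tested. In such bulk RNA, more cells of a type and more RNA per cell cannot be told apart. The study's legends treat each library as a biological replicate and count the replicates as mice, which the labels themselves do not state.

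None of the 10 members passed the test between groups (edgeR quasi-likelihood test, BH-adjusted p under 0.05). The same test called 0 of the 24262 genes tested (0.00%), so the family did not differ from the background in this. At an unadjusted p under 0.05 there were 4 members, Bcl2l1, Bak1 and Bid with a higher and Bcl2l11 with a lower level in Ag+Costim. Of all genes, 18.6% passed this limit, 7.89% higher and 10.7% lower. DESeq2 called Bak1 alone of the members, as higher, and 14.3% of all genes, 1.79% as higher and 12.5% as lower. A limma fit that gives each library a quality weight called 7 members, as against 52.1% of all genes, and gave Ag replicates 2 and 5 weights of 0.0986 and 0.0656, when the other Ag libraries had weights from 0.508 to 2.00. The plot of levels by library shows the single values of all 10 genes.

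**Figure D1:**
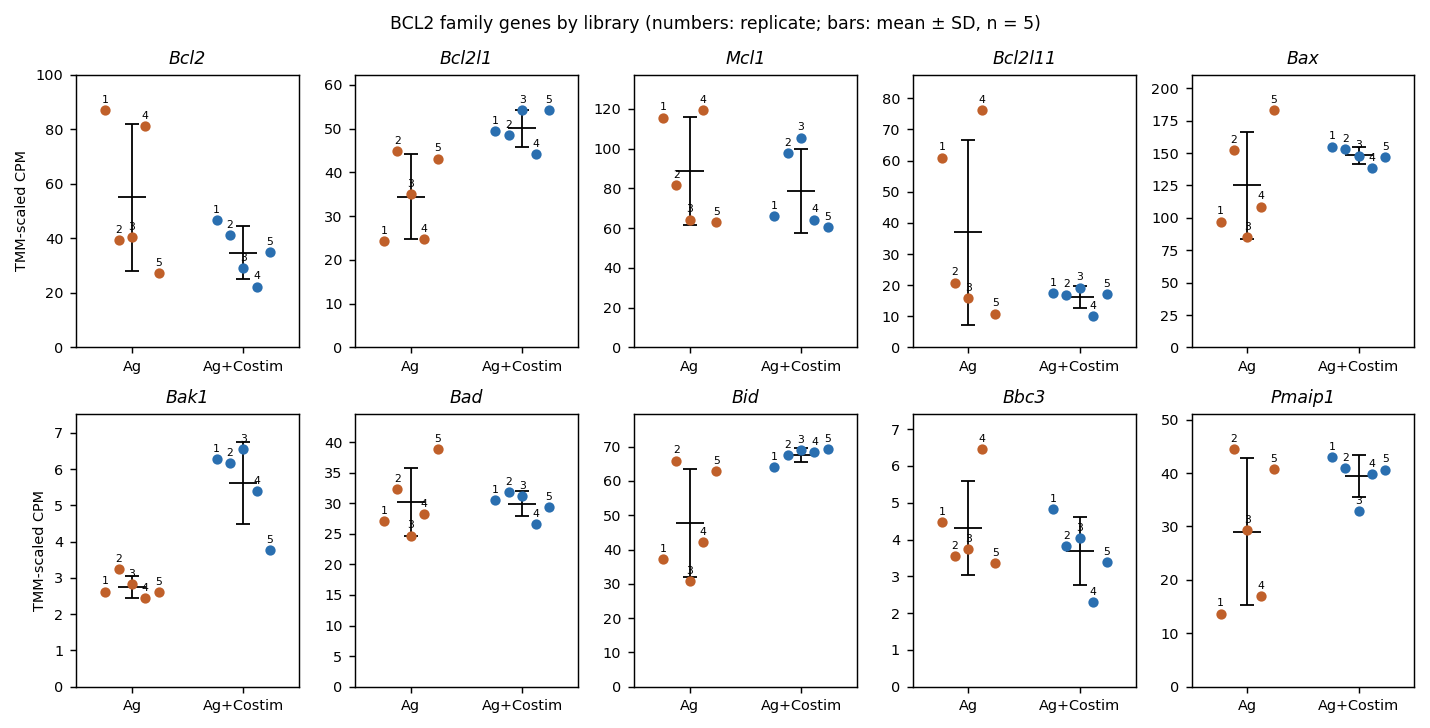
Levels of the 10 BCL2 family genes in every library, in TMM-scaled CPM on axes that start at 0. Points are libraries numbered by replicate, and black bars are the mean ± SD (n = 5). Ag replicates 1 and 4 are the highest points for Bcl2, Mcl1 and Bcl2l11 and the lowest for Bcl2l1 and Pmaip1, and on this scale Bak1 is the only member without overlap between groups.

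Bcl2l11, which encodes the death activator Bim, had the largest log2 difference of the family in the reported fit. Bak1 exceeded Bcl2l11 in size with no filter on low counts (1.39 against -0.999) and with the replicate block (1.02 against -0.78). Bak1 was also the larger without Ag replicate 1 (1.02 against -0.937), without Ag replicate 4 (1.003 against -0.741) and without both (0.973 against 0.0387). Bcl2l11 levels in Ag replicates 1 to 5 were 60.9, 20.8, 15.9, 76.2 and 10.8 CPM. Those in Ag+Costim replicates 1 to 5 were 17.3, 16.96, 19.2, 9.94 and 17.2 CPM. The libraries of Ag replicates 1 and 4 lay at least 3 times above any Ag+Costim library, and the other 3 Ag libraries lay within 2 CPM of the Ag+Costim range. Means were 36.9 ± 29.6 CPM in Ag against 16.1 ± 3.57 CPM in Ag+Costim (mean ± SD, n = 5), a log2 difference of -1.20 (SE 0.50, edgeR adjusted p = 0.265). Without Ag replicates 1 and 4 the log2 difference was 0.0387 (SE 0.26, edgeR adjusted p = 0.945). Without Ag replicates 2 and 5 it was -1.57 (SE 0.43, edgeR adjusted p = 0.0170), in a fit that called 48.8% of all genes. The 2 libraries with high Bcl2l11 were also those with low cell cycle levels, and the part of this in the difference was not tested.

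Bcl2, the survival gene that Bim neutralises, was highest in the same pair of libraries. In order of replicate, Ag libraries held 87.1, 39.4, 40.4, 81.2 and 27.3 CPM and Ag+Costim libraries 46.7, 41.1, 29.2, 22.3 and 34.8 CPM. Again Ag replicates 1 and 4 alone exceeded every Ag+Costim library. The means of 55.1 ± 27.1 and 34.8 ± 9.61 CPM (SD, n = 5) gave a log2 difference of -0.66 (SE 0.33, edgeR adjusted p = 0.288). This was -0.02 (edgeR adjusted p = 0.970) without Ag replicates 1 and 4 and -0.89 (edgeR adjusted p = 0.0355) without Ag replicates 2 and 5. An antisense gene, D630008O14Rik, lies opposite to Bcl2 with a mean count of 233, and since the library kit does not mark strand its reads cannot be told apart from those of Bcl2 where they overlap.

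Mcl1, a short-lived survival protein that holds Bim and Bak1, was the most abundant of the survival genes in CPM. Levels were 116, 81.6, 64.2, 119 and 63.2 CPM without and 66.1, 97.5, 106, 64.3 and 60.4 CPM with costimulation. Only Ag replicates 1 and 4 exceeded the highest Ag+Costim library, and the spread within Ag+Costim was itself wide. The log2 difference was -0.17 (SE 0.24, edgeR adjusted p = 0.660), and it turned to 0.19 without Ag replicates 1 and 4 and to 0.10 with no filter on low counts.

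Bcl2l1, the gene of Bcl-xL, ran opposite to Bcl2. The Ag replicates had 24.4, 44.9, 35.0, 24.7 and 43.1 CPM, while the Ag+Costim replicates had 49.4, 48.4, 54.1, 44.2 and 54.2 CPM. All Ag+Costim libraries lay above all Ag libraries but for Ag replicate 2, which was 44.9 CPM against 44.2 CPM in Ag+Costim replicate 4. The mean was 34.4 ± 9.76 CPM in Ag against 50.1 ± 4.21 CPM in Ag+Costim (mean ± SD, n = 5), a log2 difference of 0.54 (SE 0.19, edgeR adjusted p = 0.245). It was 0.30 (edgeR adjusted p = 0.352) without Ag replicates 1 and 4 and 0.97 (edgeR adjusted p = 8.59e-04) without Ag replicates 2 and 5. The median of the 8626 genes of at least 10 CPM was 0.24 on the same scale and 0.59 without Ag replicates 2 and 5. Relative to that median, Bcl2l1 stood above it in each of these fits.

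Bid, which links death receptors to mitochondria once cleaved, was even in Ag+Costim and uneven in Ag. In order of replicate, Ag libraries held 37.3, 65.9, 30.8, 42.1 and 62.9 CPM and Ag+Costim libraries 64.1, 67.6, 69.1, 68.4 and 69.2 CPM. Ag replicate 2 lay within the range of Ag+Costim, Ag replicate 5 just under it, and the other 3 Ag libraries well below. The log2 difference was 0.50 (SE 0.21, edgeR adjusted p = 0.264). The gene Bcl2l13, itself a BCL2 relative, overlaps the annotated end of Bid on the other strand, but only in the transcript Bid-204. Bid-201 ends short of the overlap and held a mean of 99.6% of the count in Ag and 99.7% in Ag+Costim.

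Pmaip1, the gene of Noxa, a BH3-only protein that binds mainly Mcl1, showed the pattern of Bcl2l1. Its coding sequence held 2 matches of the BH3 pattern. Levels were 13.7, 44.4, 29.4, 17.0 and 40.7 CPM without and 43.0, 41.0, 32.8, 39.9 and 40.6 CPM with costimulation. The lowest were Ag replicates 1 and 4, and Ag replicate 2 was the highest of all 10 libraries. The log2 difference of 0.44 (SE 0.30, edgeR adjusted p = 0.377) became 0.06 without Ag replicates 1 and 4 and 1.11 (edgeR adjusted p = 0.00472) without Ag replicates 2 and 5. Bbc3, the gene of Puma, ranged from 3.35 to 6.45 CPM in Ag and from 2.30 to 4.82 CPM in Ag+Costim, with a log2 difference of -0.23 (SE 0.27, edgeR adjusted p = 0.594). Bad, whose protein is held inactive by phosphorylation in cells that receive growth signals, had the smallest coefficient of variation of the BH3-only genes in Ag (18.3%). It ranged from 24.7 to 38.8 CPM in Ag and from 26.6 to 31.9 CPM in Ag+Costim, with a log2 difference of -0.01 (SE 0.14, edgeR adjusted p = 0.956). The sign of this difference reversed in 8 alternative fits and stayed in 11. It reversed with no filter on low counts, quality weights, the replicate block and some omitted libraries, but not with another scaling.

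The 2 effectors differed in how they compared. Bax ranged widely in Ag, at 97.1, 152, 84.9, 109 and 183 CPM, and narrowly in Ag+Costim, at 155, 153, 148, 138 and 147 CPM, so that the groups overlapped. The log2 difference was 0.24 (SE 0.21, edgeR adjusted p = 0.468), close to the median of 0.24 over genes of at least 10 CPM. Bak1 was at 2.62, 3.23, 2.83, 2.43 and 2.61 CPM in Ag and at 6.28, 6.17, 6.54, 5.39 and 3.76 CPM in Ag+Costim. All 5 Ag+Costim libraries exceeded all 5 Ag libraries, as was the case for 4.48% of all genes in this direction. The log2 difference was 1.04 (SE 0.22, edgeR adjusted p = 0.141), and it was 0.91 (SE 0.18, adjusted p = 7.86e-05) in DESeq2. Bak1 kept its sign and size when libraries were left out, being 0.97 without Ag replicates 1 and 4 and 1.22 without Ag replicates 2 and 5. With total counts as the scaling, the Bak1 ranges overlapped and the log2 difference was 0.76, when 2.76% of all genes were higher without overlap. They stayed apart with RLE factors (2.88% of all genes) and with upper quartile factors (1.48%). Bak1 lies within Ggnbp1, a gene on the opposite strand with a mean count of 5416, so that without strand the reads of the 2 genes cannot be told apart where they overlap.

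**Figure D2:**
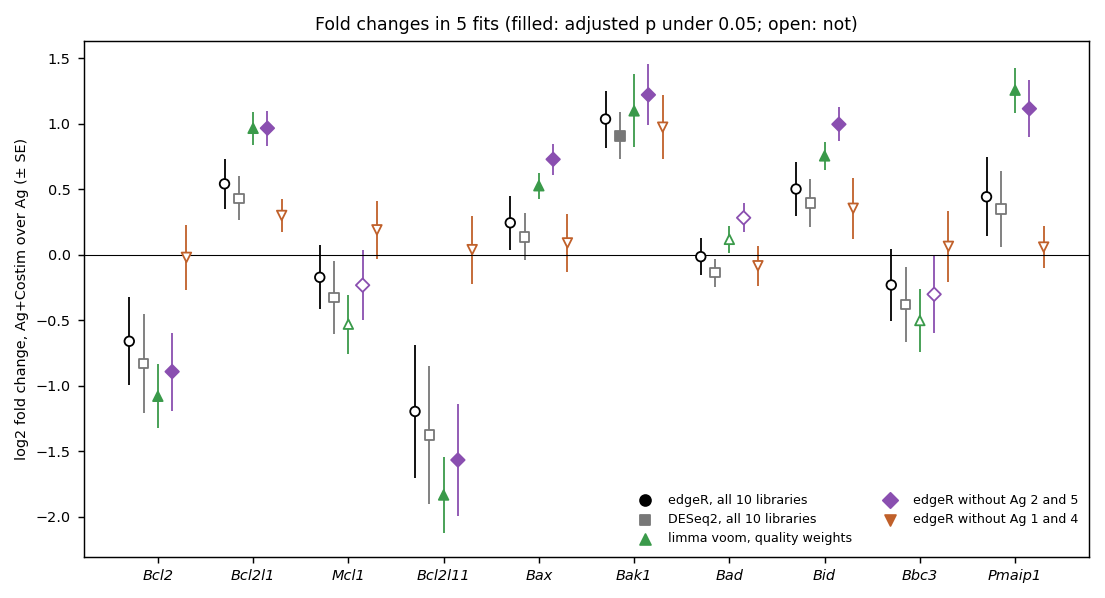
Log2 fold change of each member, Ag+Costim over Ag, with its SE, in 5 fits. Filled symbols have an adjusted p under 0.05, and Bcl2l11 moves from -1.57 without Ag replicates 2 and 5 to 0.0387 without Ag replicates 1 and 4 while Bak1 stays between 0.91 and 1.22.

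With 7 members past the threshold when Ag replicates 2 and 5 were left out, the directions were as follows. Bcl2l1, Bax, Bak1, Bid and Pmaip1 were higher in Ag+Costim and Bcl2 and Bcl2l11 lower, beside 17.9% of all genes called higher and 30.8% called lower in that fit. The weighted limma fit called the same 7 genes in the same directions, beside 25.7% of all genes higher and 26.3% lower. With Ag replicates 1 and 4 left out, 0 members and 0 of all genes (0.00%) passed.

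**Figure D3:**
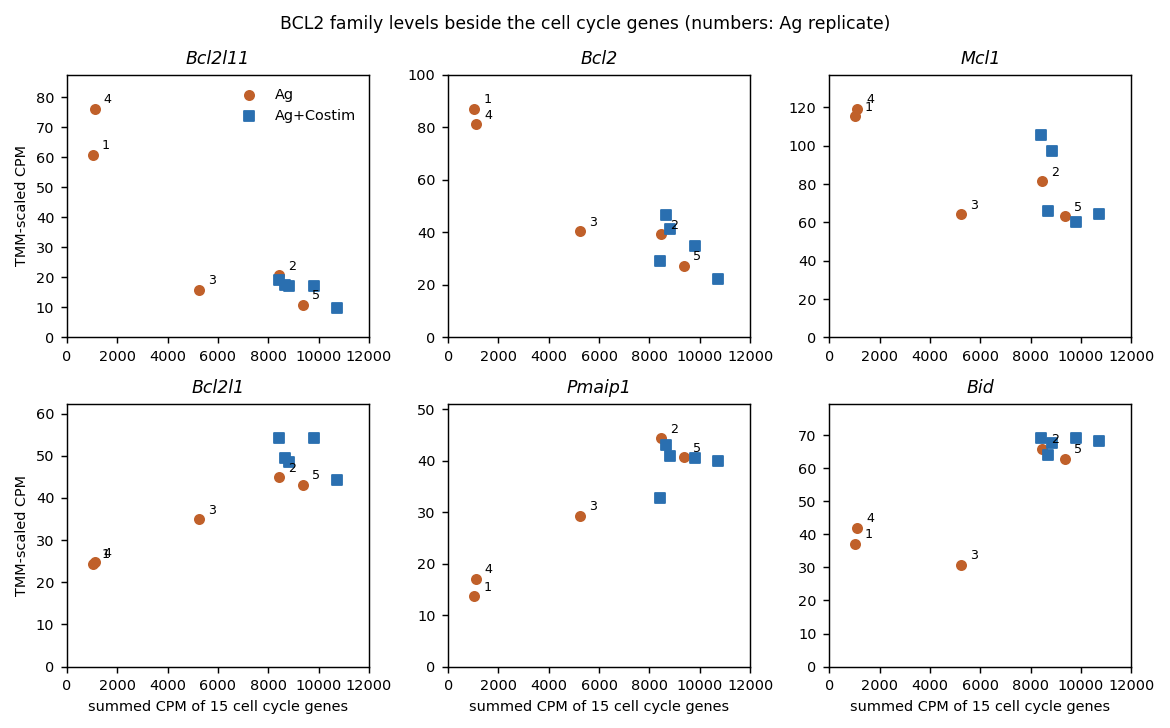
Level of 6 members (TMM-scaled CPM) against the summed CPM of 15 cell cycle genes in each library, with Ag libraries numbered. Ag replicates 1 and 4, at 1032 and 1098 CPM of cell cycle genes, have the highest Bcl2l11, Bcl2 and Mcl1 and the lowest Bcl2l1 and Pmaip1, and Ag replicates 2 and 5 lie among the Ag+Costim libraries.

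Ratios between members within a library need no scaling factor, so they were taken from length-corrected levels (TPM, from transcript counts divided by transcript length and scaled to a common total). Bcl2l11 over Bcl2l1 was 0.50, -1.78, -1.55, 0.81 and -2.46 on the log2 scale in Ag and between -2.88 and -2.17 in Ag+Costim. Bim message exceeded Bcl-xL message only in Ag replicates 1 and 4. Bcl2l11 over Bcl2 hardly separated any library, at -0.53 to 0.27 in Ag and -0.92 to -0.02 in Ag+Costim, since both genes were high in the same libraries. Bcl2l11 over the sum of the 3 survival genes was -2.74 ± 0.81 in Ag against -3.65 ± 0.23 in Ag+Costim (log2, mean ± SD, n = 5). Of that sum, Bcl2l1 made up 16.8%, 37.4%, 36.1%, 17.2% and 43.3% in Ag and from 35.6% to 48.8% in Ag+Costim. Bcl2 made up from 11.1% to 27.7% in Ag and from 8.28% to 16.9% in Ag+Costim. Mcl1 made up from 45.6% to 57.7% and from 38.6% to 53.3%. None of the 8 ratios computed was free of overlap between groups.

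Levels per length put the members in order. Bax was the highest in both groups, at 220 ± 27.8 TPM in Ag against 247 ± 11.96 TPM in Ag+Costim (mean ± SD, n = 5), and stood apart from the next member in each. In Ag, Mcl1 (47.4 TPM), Bad (40.6 TPM), Bid (36.5 TPM), Bcl2l1 (23.7 TPM), Bcl2 (19.4 TPM), Bcl2l11 (17.97 TPM) and Pmaip1 (17.1 TPM) followed, and every neighbouring pair of these overlapped. Bbc3 (4.52 TPM) and Bak1 (1.99 TPM) came last and overlapped too. In Ag+Costim the order was Bax, Bid (47.7 TPM), Bad (37.2 TPM), Mcl1 (35.2 TPM), Bcl2l1 (31.4 TPM), Pmaip1 (22.2 TPM), Bcl2 (8.99 TPM), Bcl2l11 (6.12 TPM), Bak1 (3.62 TPM) and Bbc3 (3.25 TPM). There Bax, Bid, Bcl2l1 and Pmaip1 were each apart from the next lower gene, and the other neighbours overlapped. On the TPM scale the groups did not overlap for 3 members, Bcl2l1, Bid and Bak1, all higher in Ag+Costim, as for 4.93% of all genes tested. Bcl2l1 was 21.2 to 27.3 TPM in Ag and 27.4 to 34.5 TPM in Ag+Costim, a gap narrower than the spread of either group. Bid was 26.9 to 43.1 TPM in Ag and 45.3 to 49.2 TPM in Ag+Costim. Bax on this scale was 172 to 243 TPM in Ag and 228 to 258 TPM in Ag+Costim. The low Bax of Ag replicates 1 and 4 in TMM-scaled CPM was not seen in TPM. The 2 measures differ in scaling as well as in length correction, since TPM carry no TMM factor. That factor was 1.40 and 1.25 in Ag replicates 1 and 4. With total counts as the scaling and no length correction, the Bax log2 difference was 0.03, against 0.24 with TMM.

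Over the 10 libraries, the genes most like 4 of the members were searched among 8626 genes of at least 10 CPM, by Pearson's r of log2(CPM + 1) as a measure of likeness. The points share their group and sort, and Ag replicates 1 and 4 hold the extreme values of all 4 members. For Bcl2l11 they were Ccpg1 (0.99), Foxp1 (0.99) and Cep350 (0.99), and for Bcl2 they were A130071D04Rik (0.98), 5830428M24Rik (0.97) and 4632427E13Rik (0.96). For Bcl2l1 they were Myo1f (0.99), Csrp1 (0.98) and Dhx16 (0.98), and for Mcl1 they were Mindy2 (0.97), Rasa1 (0.97) and Pptc7 (0.96).

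Isoforms of the family carry opposite or graded functions, which is why transcripts and splicing were read beside the gene totals. Bim is made as EL, L and S forms that share the BH3 domain. The EL form keeps a segment of 168 bases (56 codons) at chr2:128128757-128128924 that holds sites of ERK phosphorylation, and the S form also lacks the exon part that follows. The joins are shown because the sorting of reads into these isoforms rests on them. Each line has 15 bases on either side of a boundary, with the bases before the boundary in capitals.
BimEL, into the segment: AGACAGAACCGCAAGgtaatcccgacggcg
BimEL, out of the segment: TCTCTTTTGACACAGacaggagcccggcac
BimL: AGACAGAACCGCAAGacaggagcccggcac
BimS: AGACAGAACCGCAAGcttccatacgacagt
The segment begins with gt and ends with ag, the bases that usually bound an intron, and the events table types it as a retained intron although it is coding sequence. Mcl1 has a like segment of 138 bases (46 codons) at chr3:95658909-95659046 inside its first exon, kept in Mcl1-201 and absent from Mcl1-202.
Mcl1, into the segment: ACCTGTACTGCGGCGgcgccagcctcggcg
Mcl1, out of the segment: GGCCGCCGCCCGTGGgcgccgaggaccccg
Mcl1-202: ACCTGTACTGCGGCGgcgccgaggaccccg
Here the segment begins with gc and ends with gg, and the same 5 bases follow both of its boundaries.

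No member passed the test of transcript usage between groups (diffSpliceDGE of edgeR, gene-level Simes test, BH-adjusted p under 0.05). That test called 45 of 10441 genes (0.431%). It covered 7 members, each at an unadjusted gene-level p above 0.05, while Mcl1, Bak1 and Pmaip1 had a single transcript past the filter. With Ag replicates 2 and 5 left out, Bad was called (adjusted p = 0.0102), as were 7.37% of all genes.

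EL held the largest share of the Bim count in every library. These shares are not corrected for length, and the EL transcript (5036 bases) is longer than the L transcript (3538 bases). They therefore do not rank the forms by number of molecules. Bcl2l11-205, the EL transcript of 196 codons, made up 72.8%, 69.7%, 49.6%, 69.7% and 64.5% of the gene's count in Ag and 69.1%, 74.4%, 64.9%, 71.6% and 77.1% in Ag+Costim. The lowest share was that of Ag replicate 3, the shallowest library with 1128 counts for the gene. Bcl2l11-203, the L transcript of 140 codons, held 25.3 ± 8.31% in Ag against 20.2 ± 5.39% in Ag+Costim (mean ± SD, n = 5). Bcl2l11-202, of 91 codons and ending in the intron after the segment, held 5.59 ± 5.50% and 5.63 ± 1.0%. S transcripts stayed at or under 1.53% of the count of the EL, L and S forms in each library. Both libraries with the highest Bcl2l11 level, Ag replicates 1 and 4, had EL shares of 76.2% and 73.2% among these forms, inside the range of Ag+Costim (69.3% to 84.0%).

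Bcl2l1 had 2 main transcripts that code for the same 233 codons of Bcl-xL and differ in their first exon. Bcl2l1-202, which starts at the downstream first exon, held 18.2%, 28.1%, 38.0%, 15.3% and 43.3% in Ag and 44.6%, 58.7%, 35.3%, 28.3% and 34.1% in Ag+Costim. The lowest shares were in Ag replicates 1 and 4, and the groups overlapped. Bcl2-202, a single-exon transcript of 199 codons, held 25.5%, 18.4%, 18.8%, 22.5% and 12.4% of Bcl2 in Ag and from 11.4% to 15.5% in Ag+Costim, again highest in Ag replicates 1 and 4. Mcl1-201 held 100% of the Mcl1 count in all libraries. Bax-201, the full-length form of 192 codons, held 51.6 ± 8.01% in Ag against 63.3 ± 3.81% in Ag+Costim (mean ± SD, n = 5). It was 61.9% at most in Ag and 59.4% at least in Ag+Costim. Bax-203, whose annotated coding sequence is shorter, held 39.3 ± 8.95% and 28.8 ± 3.39%. Bad-201 ranged from 19.2% to 65.1% in Ag and from 17.7% to 46.2% in Ag+Costim with no order by group. Means ± SD (n = 5) in Ag and Ag+Costim were 29.2 ± 14.7% and 38.4 ± 12.9% for Bad-202. They were 23.3 ± 11.6% and 25.3 ± 13.9% for Bad-208, and 5.64 ± 6.44% and 1.63 ± 1.76% for Bad-206. The groups overlapped for each.

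**Figure D4:**
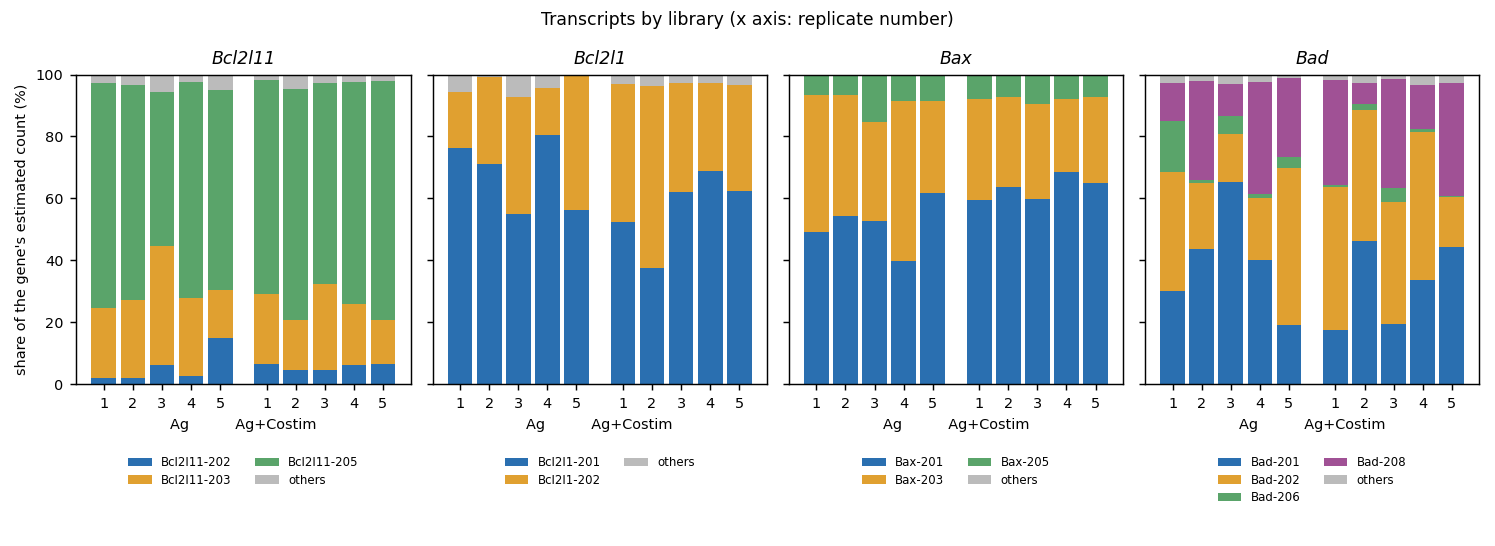
Share of the gene's estimated count held by each transcript of Bcl2l11, Bcl2l1, Bax and Bad in every library, in percent, with transcripts under 5% in both groups drawn as others. Bcl2l11-205 is the largest part in all 10 libraries, and Bcl2l1-202 is smallest in Ag replicates 1 and 4.

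The splicing table gives 1 value per group for each event, the proportion spliced in (PSI), with libraries already combined, so its differences have no replicate error and no test. Of the 54 member events, 12 (22.2%) differed by more than 0.05, beside 11.9% of all events. The events are not independent, since alternative ends or starts of a gene divide a shared total. The ends of Mcl1, for example, differed by 0.124 and -0.124 and count as separate events. These 12 were 7 of 10 transcript ends, 2 of 12 transcript starts, 2 of 3 retained introns and 1 of 3 alternative first exons. The background for these types was 43.0%, 28.7%, 31.6% and 17.5%. None of the 23 core exons of the members passed, as against 5.50% of all core exons. With a limit of 0.1, 11 of the 12 events remained, beside 5.87% of all events. In genes of at least 10 CPM, the same 12 member events differed by more than 0.05, beside 6.71% of the events of such genes.

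The BH3 exon of Bcl2l11 was kept at a PSI of 0.994 in Ag against 0.989 in Ag+Costim. The EL segment was kept at 0.479 in Ag against 0.588 in Ag+Costim. Transcript counts, not corrected for length, gave 66.7 ± 9.31% in Ag against 72.5 ± 4.85% in Ag+Costim (mean ± SD, n = 5) for the same segment. The sign of the difference was the same, and the groups overlapped. Longer transcripts weigh more in counts, and the EL transcript has 5036 bases against 3538 for the L transcript. The size of this count value is therefore not comparable with that of the PSI. The part that L and EL share but S lacks was at 0.914 and 0.942. Among transcript ends, the first of 3 ends had a PSI of 0.699 in Ag against 0.311 in Ag+Costim, the second 0.034 and 0.245, and the third 0.269 and 0.447. Transcript counts do not show this difference. The first end had at most 0.906% of the count of the 3 ends in any library, and the third held 72.1 ± 9.24% in Ag against 77.9 ± 5.92% in Ag+Costim.

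Exon 2 of Mcl1, whose skipping yields a death-promoting short form, was kept at 0.999 in both groups. The 138-base segment of exon 1 was at 0.851 in Ag against 0.959 in Ag+Costim, whereas transcript counts assigned all of Mcl1 to the form that keeps it. The ends of Mcl1 were at 0.557 and 0.681 for the nearer one and at 0.443 and 0.319 for the farther one, 2353 bases downstream. For Bcl2l1, the exon that holds most of the coding sequence was at 0.997 and 0.999. Its downstream first exon was at 0.404 in Ag against 0.503 in Ag+Costim, and the matching inclusion from transcript counts was 31.2 ± 10.7% against 42.8 ± 12.01% (mean ± SD, n = 5). The 2 ends of Bcl2l1 that passed lie 4 bases apart.

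Bad had the largest difference in PSI of the family apart from the first end of Bcl2l11. Its most upstream start, at chr19:6941861-6942322, was at 0.368 in Ag against 0.006 in Ag+Costim, and the next start at 0.632 and 0.994. This upstream stretch and the next start, at chr19:6942323-6942440, both lie within Gpr137, a gene on the opposite strand that spans 6938057 to 6942480. Reads without strand cannot be assigned to either gene there. The PSI of these Bad starts is shared between the upstream and the next start alone. In transcript counts, Bad-201, which begins at the upstream start, was set against transcripts that mostly begin outside this pair. Its part was 40.5 ± 17.8% in Ag against 32.9 ± 13.7% in Ag+Costim (mean ± SD, n = 5), with overlap between groups. The count value is therefore not a like measure to the PSI. Bad-203, which begins at the next start, had no count in any library. The upstream start of Bcl2 was at 0.082 and 0.036, and Bcl2-201, the transcript that begins there, held from 74.5% to 88.6% of the gene's count. This share is not corrected for length, and Bcl2-201 has 7191 bases against 2841 for Bcl2-202. Its size is therefore not comparable with that of the PSI.

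**Figure D5:**
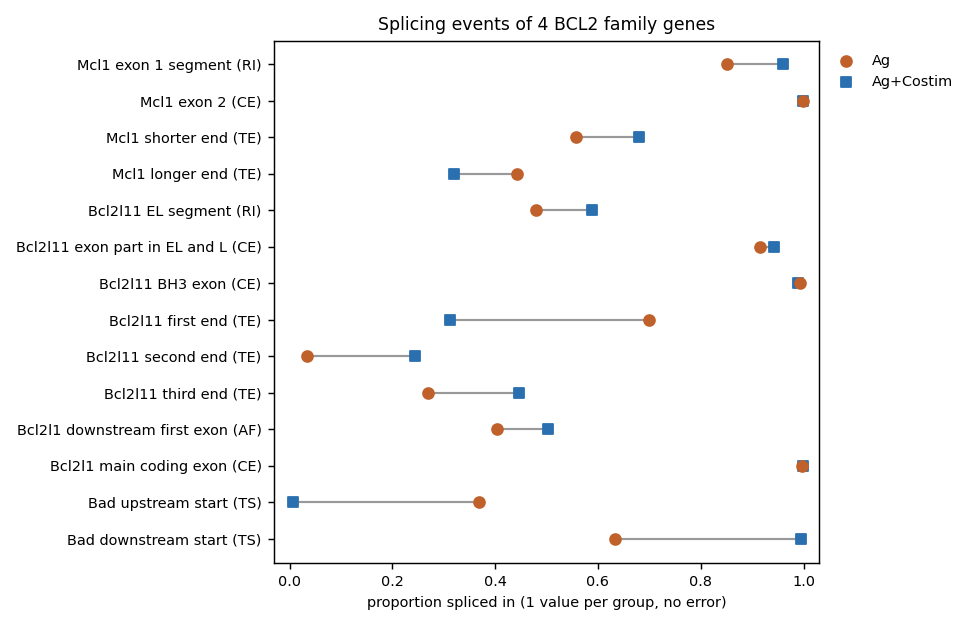
PSI of 14 events of Mcl1, Bcl2l11, Bcl2l1 and Bad in Ag (circles) and Ag+Costim (squares), with 1 value per group and no error bars. RI stands for retained intron, CE for core exon, TE for transcript end, AF for alternative first exon and TS for transcript start, and the exons with the BH3 domain of Bcl2l11 and exon 2 of Mcl1 stay near 1 while ends and starts differ.

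Other genes of the pathway were read from lists of relatives, caspases and regulators. Of 14 further BCL2 relatives, 13 were tested and none passed in edgeR, with 5 higher and 8 lower in Ag+Costim and a median log2 difference of -0.24. Unadjusted p-values under 0.05 were found for Hrk and Bcl2l14, both lower, and both named here after their values were seen. Hrk, a BH3-only gene, was at 1.22 ± 2.31 CPM in Ag against 0.035 ± 0.032 CPM in Ag+Costim (mean ± SD, n = 5). Its Ag mean rested on Ag replicate 3, the library with the most B cell and erythroid markers, at 5.34 CPM, while the other Ag libraries had at most 0.299 CPM. Bcl2l14, the only relative that DESeq2 called, was at 2.56 ± 0.69 against 1.10 ± 0.32 CPM (mean ± SD, n = 5). Of 12 genes of the apoptosome, the caspases and their inhibitors, none passed in edgeR or DESeq2, and the median was 0.13. The caspase inhibitor Xiap, again named after its values were seen, was among those at an unadjusted p under 0.05, at 19.2 ± 4.46 CPM in Ag against 14.9 ± 0.46 CPM in Ag+Costim (mean ± SD, n = 5). Of 12 regulators and partners of members, none passed in edgeR, 2 were higher at an unadjusted p under 0.05, and the median was 0.22. The median of all tested genes was -0.32, and that of genes of at least 10 CPM was 0.24.

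In these lists, 2 genes of at least 10 CPM had no overlap between groups, both regulators and both higher in Ag+Costim, as were 11.3% of all genes of that level. Vdac1 encodes the mitochondrial porin of the outer membrane. Its level was 50.7, 199, 87.6, 65.7 and 134 CPM in Ag and between 222 and 282 CPM in Ag+Costim, with a log2 difference of 1.17 (SE 0.33, edgeR adjusted p = 0.201), and DESeq2 called it. Ywhaz encodes a 14-3-3 protein, a family that sequesters phosphorylated Bad. It was at 646, 1454, 1113, 741 and 1345 CPM in Ag and between 1498 and 1943 CPM in Ag+Costim, with a log2 difference of 0.65 (SE 0.24, edgeR adjusted p = 0.247). Both genes were lowest in Ag replicates 1 and 4. All 15 cell cycle genes had a higher mean in Ag+Costim, with a median of 0.91, and none passed in edgeR. Of these, Mki67 (log2 difference 1.10), Mcm2 (1.08) and Top2a (0.98) had no overlap between groups, and Mki67 was at 93.4, 402, 241, 98.3 and 222 CPM in Ag and between 416 and 469 CPM in Ag+Costim.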

How the data were processed

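Per the labels, SMART-Seq v4 and Nextera XT libraries, which keep no strand, were aligned to mm10 with HISAT2 2.1.0 and processed with SAMtools 1.9 and StringTie 2.1.0. The deposited gene and transcript tables hold estimated counts without normalization. Estimated counts derive from coverage, so totals are not read numbers. The authors' Whippet table gives PSI as a fraction, 1 deposited value per group. Its difference, probability and entropy columns are the authors' own comparison and were not used, so events were taken past a PSI difference of 0.05 alone, without the planned probability. Entries with a number for a name (at most 0.308% of a library) were left out.

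Genes were tested with edgeR 4.0.16 in R 4.3.3 (filterByExpr by group, TMM, robust quasi-likelihood fit, SE as the log2 difference over the root of F, BH over all genes) and transcript usage with diffSpliceDGE. DESeq2 1.42.0, limma 3.58.1 (voom with quality weights, diffSplice), 3 other scalings, no filter, a replicate block and omitted libraries were alternatives. All 10 members were named. Transcripts of at least 5% of the gene's count in either group were eligible to be named. So were events past the threshold and events of Bcl2l1, Mcl1 and Bcl2l11 between 0.02 and 0.98. Not all of these transcripts and events are described. From other lists, called genes were named or else up to 4 without overlap and of at least 10 CPM. Motif and junction sequences come from GENCODE M21 transcripts. Fits were tested on simulated data first, with the same dispersion (variance between replicates beyond counting) in both groups. In the data the common dispersion was higher and unequal, at 1.49 in Ag and 0.341 in Ag+Costim. The simulation therefore does not show how the fits perform at this spread. The members, lists and alternatives were chosen with earlier results of these data known. The values of 1 gene of the other lists are not reported here.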

Additional observations from a re-analysis of the deposited data

Results flagged for a closer look

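Of 42 groups of 5 values checked (10 members, 3 isoform measures and 8 ratios, in both groups), 1 had a value far from the others by Dixon's test, where chance alone flags about 1 in 20. It was Bcl2l11 in Ag+Costim, where replicate 4 had 9.94 CPM and the next lowest library 16.96 CPM. Without this library the log2 difference of Bcl2l11 was -1.06 (edgeR adjusted p = 0.448). Bcl2 was also lowest there (22.3 CPM), and the summed level of cell cycle genes was the highest of all libraries (10727 CPM).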

How the results depend on the processing

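Counts of called genes depended on the fit. Members called were 0 in the reported edgeR fit, 1 with DESeq2, 7 with quality weights and 7 without Ag replicates 2 and 5. Called genes of the 3 apoptosis lists were 0, 2, 27 and 21 in the same order, and called genes in all were 0, 6214, 12632 and 16322. These counts were 0 for every single library left out, without Ag replicates 1 and 4, with the other scalings, with no filter and with the replicate block. For transcript usage, 1 member was called without Ag replicates 2 and 5 and 0 otherwise, and all called genes were 45 as reported, 247 with limma's diffSplice, 26 with at least 50 counts in 5 libraries, 910 without Ag replicates 2 and 5, 40 with the replicate block and 49 to 177 with 1 library left out. Member events were 12 over 0.05 (11.9% of all events), 11 over 0.1 (5.87%) and 12 over 0.05 in genes of at least 10 CPM (6.71%). Members without overlap, all higher in Ag+Costim, were 1 as reported (4.48% of all genes), 2 with RLE factors (Bcl2l1 and Bak1, 2.88%), 0 with total counts (2.76%) and 3 on the TPM scale (4.93%), an alternative added after the data were seen. Reversed signs, none of them past the threshold, were found for Bcl2l11 (0.0387), Mcl1 (0.19) and Bbc3 (0.0638) without Ag replicates 1 and 4, for Mcl1 (0.10), Bbc3 (0.0696) and Bad (0.29) with no filter, and for Bad with quality weights (0.12), the replicate block (7.55e-04), Ag replicates 2 and 5 left out (0.28) and single libraries left out (-0.0769 to 0.11). The Bad-201 usage coefficient was -0.15 and ranged from -0.32 to 0.0074 with 1 library left out. The cause of these differences was not tested.

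Over genes of at least 10 CPM, the median log2 difference was 0.24 with TMM, 0.12 with RLE factors, 0.02 with upper quartile factors and 0.00 with total counts, and other scalings lowered the value of every member, by unequal amounts. Same-numbered libraries of the groups did not deviate together (correlations from -0.33 to 0.18, none best with its own number). These values gave no sign of pairing by number but cannot exclude it, and the labels do not state any. With the replicate block, the Bcl2l11 log2 difference was -0.78 (edgeR adjusted p = 0.681) and 0 members were called. The planned stricter probability of the PSI table was not run, since that column is the authors' comparison.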
